A study of Mus musculus with 3 samples.

Results

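The genes described here are 42 genes of the dividing cell. They comprise 19 genes of DNA replication, 22 genes of mitosis and *Mki67*, which encodes the Ki-67 antigen of cycling cells. The genes were listed by name. Each gene was represented by 1 probe set, the one naming it that had the highest mean signal over the 3 arrays. This gave values for 40 of the 42 genes, 18 of replication, 21 of mitosis and *Mki67*, out of 18193 genes with a probe set. *Chaf1a* and *Ccnb1* were not analysed here.

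Palatal tissue of ICR mouse fetuses, labelled female, was compared at 3 stages of fusion of the palatal shelves. Maxillae were removed at E14 and cultured in suspension in BGJb medium with penicillin and streptomycin under oxygen and carbon dioxide, for 5 h before fusion, 24 h during fusion and 60 h after fusion. The labels name no transgene, deletion or added agent in any group. RNA came from the shelf edge at the first stage. For the later stages the methods give midline tissue, whereas the labels give the edge of the palatal processes at each stage. Each stage was hybridized to 1 Mouse Genome 430 2.0 array. Stage and hours in culture, and per the methods the piece of tissue, changed together and cannot be told apart. The methods describe several samples per stage and do not say if their RNA was pooled. Since each stage had a single array and no replicate, no test between stages was made and no p-value is given. Values are MAS5 signals, scaled here to one trimmed mean of the 3 arrays. Background was read on each array from 81 probe sets of sensory receptors, and their 95th percentile, called the floor, lay at 19.3, 13.3 and 14.6 in scaled signal, in the order of the stages. All 40 genes lay above the floor on all 3 arrays. A log2 ratio compares the same probe set on 2 arrays, and signals of different genes are not compared.

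Cells copy their DNA in S phase and divide it in mitosis. Before S phase, Orc, Cdc6 and Cdt1 load the Mcm2-7 helicase at origins, and Gins proteins and Mcm10 turn it into an active fork that moves with the clamp Pcna. In mitosis, Cdk1 with cyclins A and B, the Plk1 and Aurora kinases, the spindle checkpoint and the anaphase promoting complex bring the chromosomes onto the spindle and apart. E2F factors are known to drive many replication genes in late G1, and the MuvB complex with B-Myb and Foxm1 drives many mitosis genes in G2 through an element called CHR. Both sets are known to be low in cells that have left the cell cycle.

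Promoter sequences were taken from RefSeq, build GRCm38.p6, as 250 bases before to 50 bases after each gene's start. Of the 42 listed genes, 15 of replication and 17 of mitosis had a sequence. The E2F motif was searched as TTTCCCGC, TTTCGCGC, TTTGCCGC or TTTGGCGC, and the CHR motif was TTTGAA or, as the other spelling, TTCGAA. The box CCAAT was searched as such, and both strands were read for each motif. An E2F motif was found in 6 of the 15 replication promoters (*Cdc6*, *Cdt1*, *Mcm3*, *Mcm5*, *Mcm6* and *Mcm7*), in 1 of the 17 mitosis promoters (*Cdk1*) and in 704 of 27025 promoters of all genes (2.6%). A CHR motif together with CCAAT was found in 12 of the 17 mitosis promoters (70.6%), in 2 of the 15 replication promoters (13.3%) and in 8.61% of all promoters. All promoters include those of genes without a probe set here. Among the 14452 genes with a promoter and a probe set, the shares were 3.81% for E2F and 7.05% for CHR with CCAAT. The motifs can overlap each other and were counted once per promoter. A match describes letters in the window and is not evidence of binding. The following promoters run 5′ to 3′ on the strand of the gene over 280 bases, of which 250 lie before the start. The first pair of promoters belongs to the replication genes with an E2F motif that were lowest after fusion relative to before, with the E2F motif in capitals. The next pair belongs to the mitosis genes with both CHR and CCAAT that were lowest in the same ratio, with CHR and CCAAT in capitals. The promoter of *Cdc20* has the same capitals and is shown because *Cdc20* was higher after fusion, a choice made after its values were seen.
Mcm5, chr8:75109259-75109538, plus strand: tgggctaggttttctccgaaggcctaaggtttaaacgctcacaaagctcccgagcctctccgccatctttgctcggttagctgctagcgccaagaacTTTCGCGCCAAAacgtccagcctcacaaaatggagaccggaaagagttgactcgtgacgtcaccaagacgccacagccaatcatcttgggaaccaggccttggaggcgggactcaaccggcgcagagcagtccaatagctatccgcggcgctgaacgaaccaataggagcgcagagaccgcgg
Cdc6, chr11:98907901-98908180, plus strand: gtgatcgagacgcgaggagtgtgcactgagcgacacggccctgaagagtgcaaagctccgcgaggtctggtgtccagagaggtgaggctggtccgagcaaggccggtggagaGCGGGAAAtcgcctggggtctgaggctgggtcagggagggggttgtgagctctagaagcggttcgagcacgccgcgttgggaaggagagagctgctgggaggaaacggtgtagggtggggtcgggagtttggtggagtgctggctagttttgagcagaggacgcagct
Bub1b, chr2:118597961-118598240, plus strand: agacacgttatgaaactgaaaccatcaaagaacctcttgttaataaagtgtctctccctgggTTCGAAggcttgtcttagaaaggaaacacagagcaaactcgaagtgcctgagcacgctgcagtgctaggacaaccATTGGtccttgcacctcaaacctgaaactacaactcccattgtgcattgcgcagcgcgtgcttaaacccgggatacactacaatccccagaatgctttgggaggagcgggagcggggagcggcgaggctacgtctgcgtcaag
Kif11, chr19:37376132-37376411, plus strand: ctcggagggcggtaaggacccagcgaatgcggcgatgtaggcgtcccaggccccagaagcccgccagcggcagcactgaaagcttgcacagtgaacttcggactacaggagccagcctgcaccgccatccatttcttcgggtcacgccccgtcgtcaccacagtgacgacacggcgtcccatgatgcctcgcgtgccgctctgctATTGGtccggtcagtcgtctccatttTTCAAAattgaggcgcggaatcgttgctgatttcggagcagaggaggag
Cdc20, chr4:118437314-118437593, minus strand: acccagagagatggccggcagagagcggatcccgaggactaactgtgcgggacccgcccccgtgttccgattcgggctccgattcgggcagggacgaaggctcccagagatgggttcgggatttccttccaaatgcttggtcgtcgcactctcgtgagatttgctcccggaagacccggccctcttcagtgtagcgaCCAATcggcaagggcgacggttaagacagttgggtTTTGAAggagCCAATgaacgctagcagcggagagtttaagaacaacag
In *Mcm5* a pair of E2F matches on opposite strands overlapped, starting 153 and 149 bases before the start. The E2F match of *Cdc6* began 138 bases before the start. In *Kif11* the CHR match lay 19 bases before the start and CCAAT 45 bases before it. *Cdc20* had its CHR match at nearly the same distance, 18 bases before the start, and CCAAT at 53 and at 8 bases. In *Bub1b* the matches in capitals lay farther out, at 188 bases for CHR and 113 bases for CCAAT, and a second CHR match lay 41 bases after the start, beyond the stretch shown. The ratios of these genes are given with their groups.

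During fusion, most replication and mitosis genes had lower signals than before fusion, and the replication genes had the lower median ratio. The median log2 ratio of the 18 replication genes was -0.60, that of the 21 mitosis genes was -0.43 and that of all 13938 genes measured was -0.05. Of the 40 genes, 37 had a log2 ratio under 0, against 53.8% of all genes. None of the 40 was over 2-fold lower, against 3.19% of all genes, and none was over 2-fold higher, against 5.45%. At 1.5-fold, 12 of the 40 were lower, 9 of them replication genes, against 11.7% of all genes, and none was higher, against 13%. The ratios had quartiles of -0.61 and -0.18 over the 40 genes, against -0.35 and 0.29 over all genes. In tissue RNA, fewer cycling cells and less RNA of these genes per cell cannot be told apart.

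After fusion, too, most of these genes had lower signals than before fusion. The median log2 ratio after over before fusion was -0.98 for replication genes, or 1.98-fold lower, and -0.63 for mitosis genes, or 1.55-fold lower. The median of all 14000 genes measured was -0.09. All 18 replication genes and 17 of the 21 mitosis genes had a ratio under 0, against 55.2% of all genes. Over 2-fold lower were 11 of the 40 genes (27.5%), against 9.58% of all genes. They were 8 of the 18 replication genes (*Mcm4*, *Mcm5*, *Mcm6*, *Mcm7*, *Mcm10*, *Cdc6*, *Gins1* and *Rrm2*) and 3 of the 21 mitosis genes (*Bub1b*, *Birc5* and *Cenpe*). None of the 40 was over 2-fold higher, against 12.6% of all genes. Of these 11 genes, *Mcm5*, *Mcm6*, *Mcm7* and *Mcm10* had further probe sets above the floor on both arrays that were over 2-fold lower as well. Those of other genes fell short of 2-fold, with -0.91 for *Bub1b*, -0.73 for *Cenpe*, -0.86 for *Mcm4* and -0.73 and -0.99 for *Rrm2*. The count of genes over 2-fold lower was 9 with the median over probe sets, 4 with the deposited signals and 25 with the poly-A controls. Several genes lay near the threshold: *Mcm10* at -1.02 lay just inside it, and *Nusap1* at -0.99, *Mcm2* at -0.98 and *Gins2* at -0.98 just outside. At 1.5-fold the count was 25 of 40, against 23.1% of all genes.

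Between the stages during and after fusion, the medians of both groups were again under 0, except that the mitosis median turned to 0.03 with the arrays scaled to one median. The median log2 ratio after over during fusion was -0.43 for replication genes, -0.12 for mitosis genes and -0.03 for all 14338 genes measured. Below 0 were 16 of 18 replication genes and 15 of 21 mitosis genes, against 52.3% of all genes. None of the 40 was over 2-fold lower, against 5.08% of all genes, or over 2-fold higher, against 8.73%. At 1.5-fold, 8 were lower, against 15.7% of all genes. The 3 comparisons share arrays, so their values are given side by side and are not independent of each other.

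**Figure D1:**
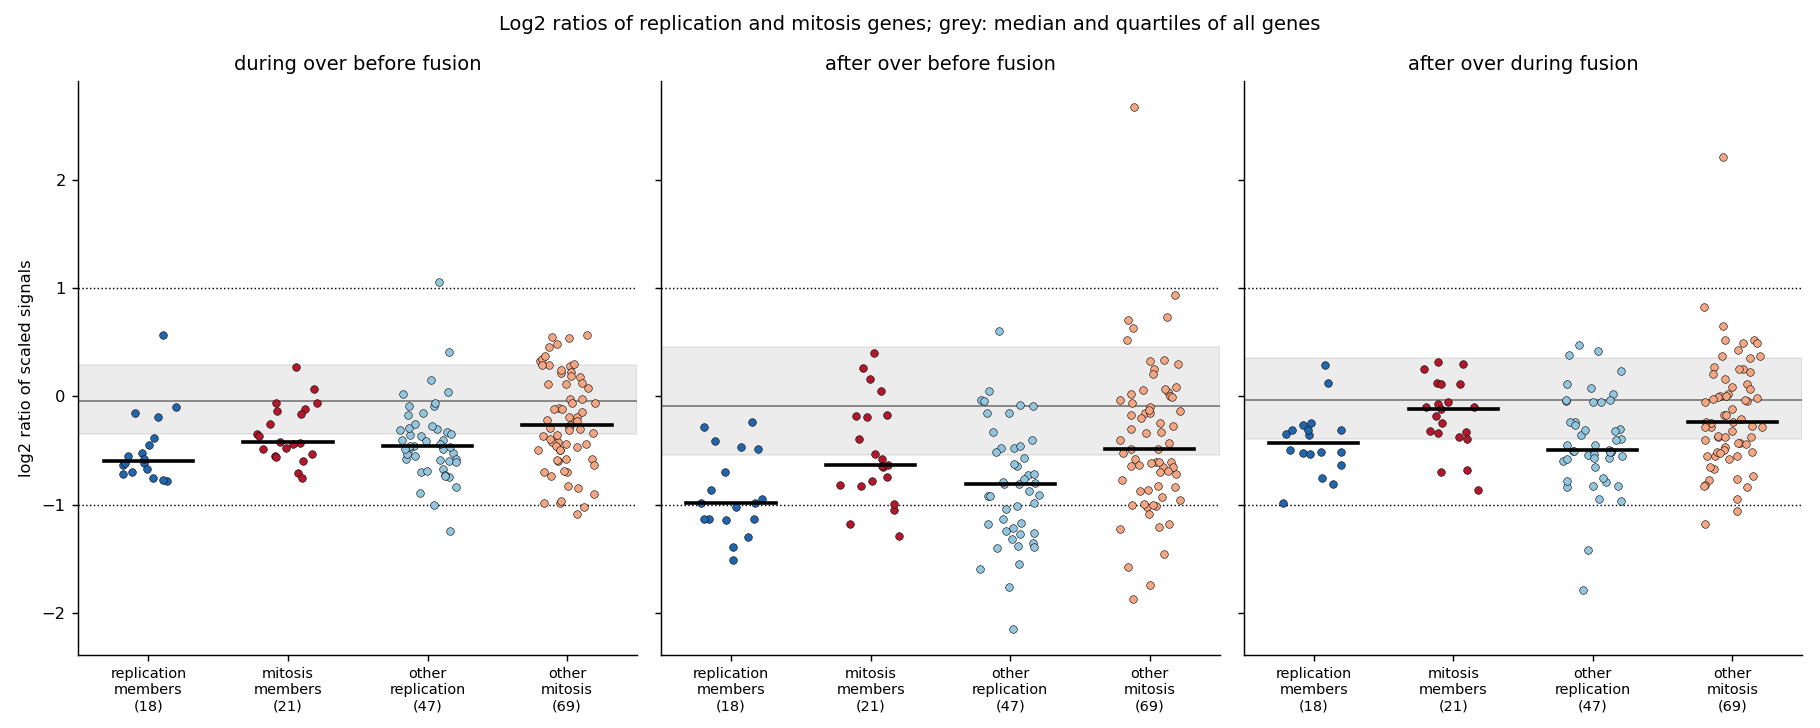
Log2 ratios of scaled signals for the replication and mitosis genes described here and for other genes of both kinds (1 point per gene, number of genes in brackets), with group medians as black bars, the median and quartiles of all genes in grey and dotted lines at 2-fold. Replication genes had the lower median in each panel, -0.98 against -0.63 after over before fusion.

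The median of the replication genes lay below that of the mitosis genes in each of the 3 comparisons. The mitosis median was higher by 0.17 during over before, by 0.35 after over before and by 0.31 after over during fusion on the log2 scale. A factor that scales an array cancels in this difference by construction. After over during fusion it depended on which genes entered, with 0.24 without *Tyms* and 0.14 without the genes represented by a shared probe set, both chosen after seeing the data. Over all alternatives it was 0.14 to 0.19 during over before and 0.28 to 0.35 after over before fusion. Of the 378 pairs of a replication and a mitosis gene, the replication gene had the lower ratio in 70.4% during over before, in 73.0% after over before and in 71.7% after over during fusion. The groups overlapped. After over before fusion, 7 of the 21 mitosis genes lay above every replication gene, and 3 of the 18 replication genes lay below every mitosis gene. The sole spread within these values was that between probe sets of the same gene, with an SD of the log2 ratio of 0.28, 0.35 and 0.35 for these genes in the same order of comparisons. It applies to the ratio of a single gene and not to a median. For their probe sets with scaled signals over 100 it was 0.19, 0.17 and 0.21. This spread does not include differences between embryos.

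**Figure D2:**
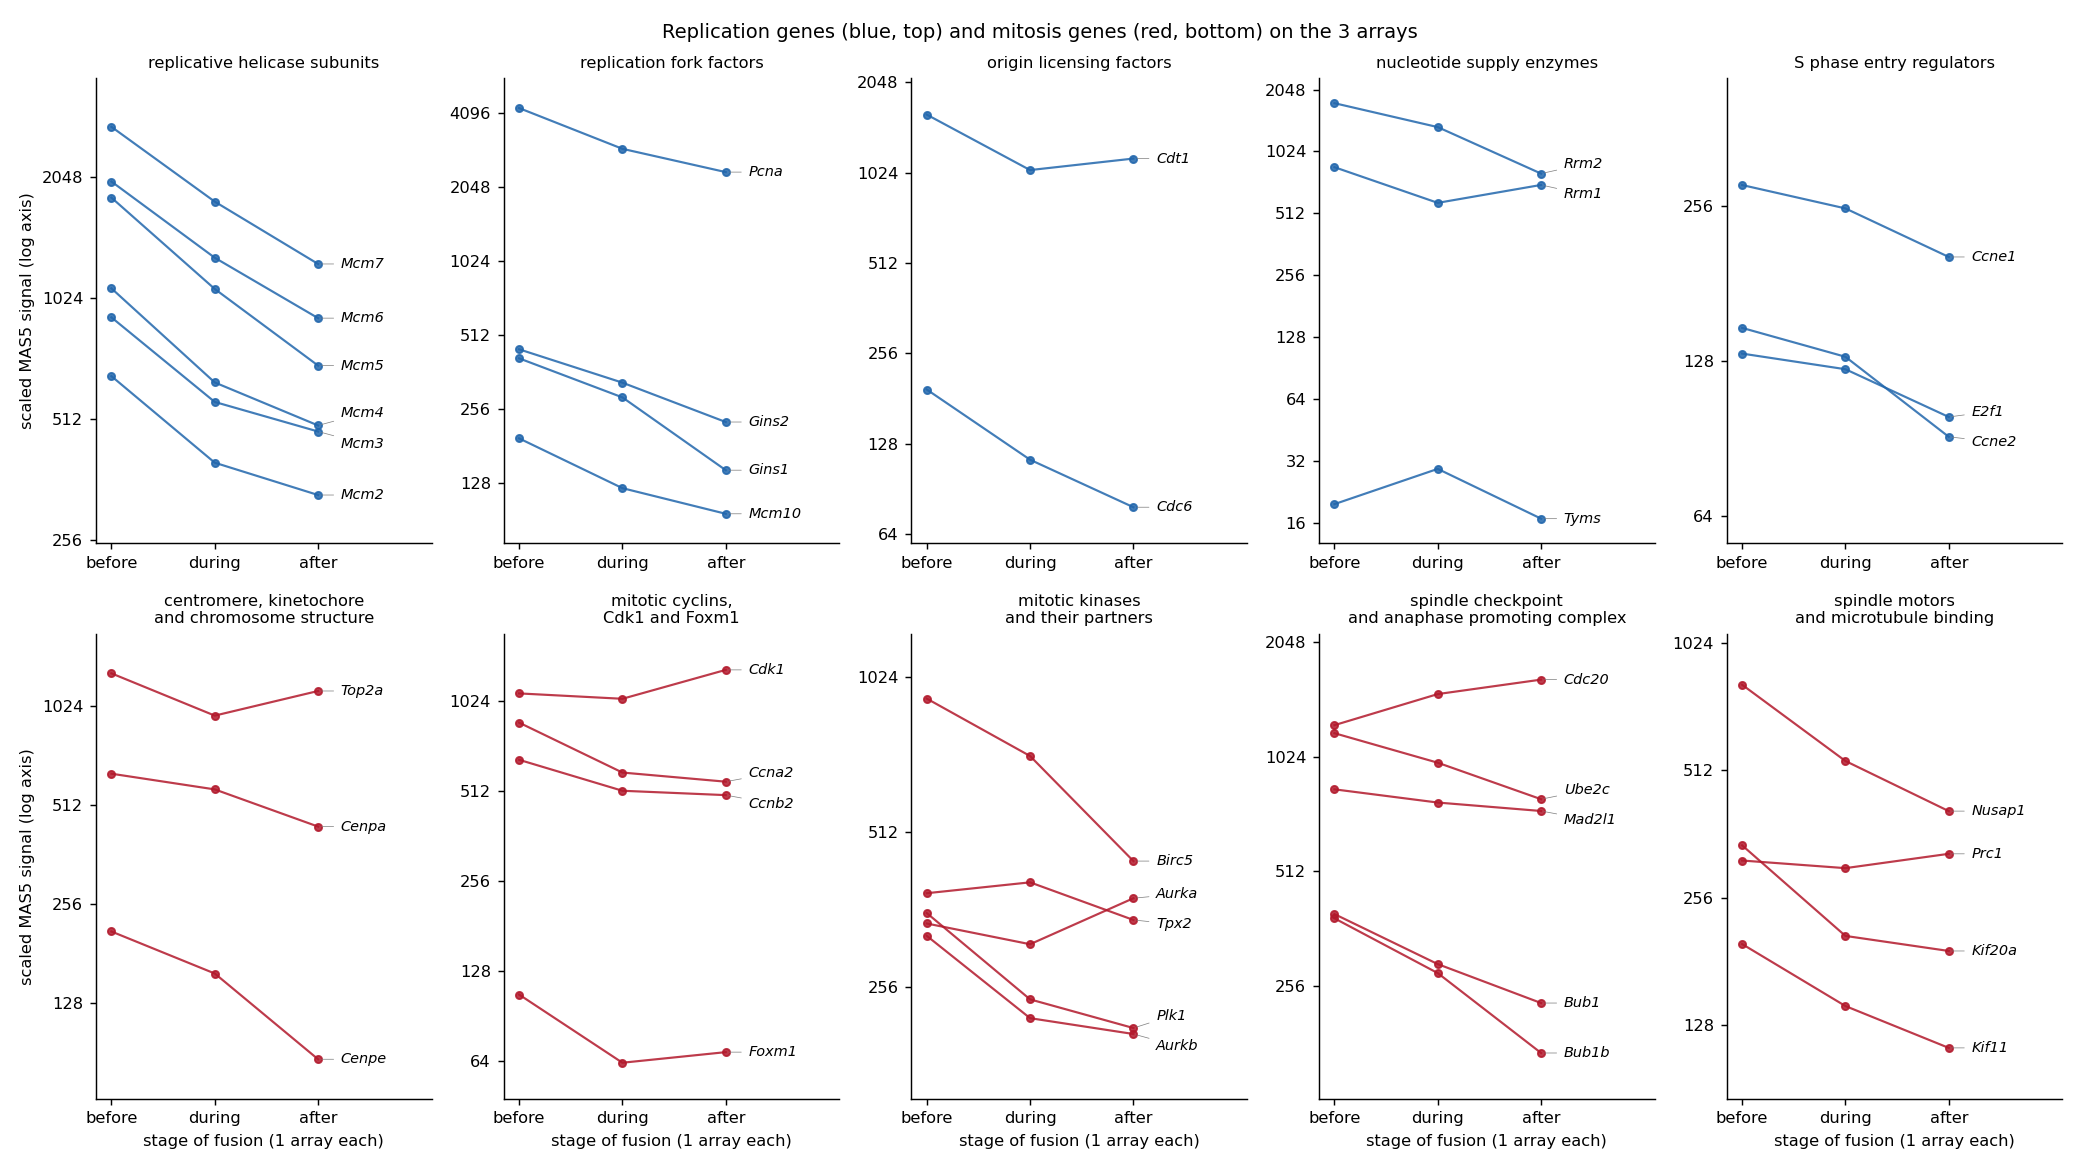
Scaled MAS5 signal (log axis) of the replication genes (blue) and mitosis genes (red) on the 3 arrays, 1 line per gene, in panels by role. The helicase subunits run nearly parallel and downward, while *Cdc20*, *Cdk1*, *Aurka* and *Prc1* end at or above their level before fusion, which for the last 3 turned under another scaling.

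*Mki67*, whose product coats chromosomes of dividing cells, had scaled signals of 744 before, 619 during and 409 after fusion. Its log2 ratio was -0.27 during over before, -0.86 after over before and -0.60 after over during fusion. Its sign during over before fusion turned under another scaling, whereas the ratio after over before stayed between -1.24 and -0.69.

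The 6 subunits of the Mcm2-7 helicase, the ring that unwinds DNA at the fork, had the narrowest range of ratios of the roles with more than 3 genes, in each comparison. Their log2 ratios lay between -0.78 and -0.62 during over before and between -1.39 and -0.94 after over before fusion. For these brightest probe sets, each ratio was under 0 in each comparison and under each scaling. After over during fusion, the other probe sets above the floor had 0.25 for *Mcm2*, 0.04, 0.05, 0.31 and -0.67 for *Mcm3*, and 0.09 and -0.56 for *Mcm5*. Those of *Mcm4*, *Mcm6* and *Mcm7* were under 0 there. *Mcm5* had signals of 1816 before, 1076 during and 694 after fusion and a log2 ratio of -1.39 after over before. *Mcm4* had signals of 1080.1 before, 629.8 during and 492 after fusion and a ratio of -1.13. Both were lower at each later stage, and *Mcm5* had the lowest ratio of the 6. *Mcm6* had 1992 before, 1287 during and 910.5 after fusion. *Mcm7* had 2725 before, 1775 during and 1242 after fusion. Their ratios after over before fusion were -1.13 and -1.13, the same to the second decimal as that of *Mcm4*. *Mcm2* had 653 before, 398 during and 330.4 after fusion and a ratio of -0.98. *Mcm3* had 915 before, 563 during and 475 after fusion and a ratio of -0.94. These subunits were 1.98-fold and 1.92-fold lower after fusion, just short of 2-fold. The median of the 6 was -0.71 during over before, -1.13 after over before and -0.43 after over during fusion.

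By their brightest probe sets, the factors that act at the fork itself were also lower on each later array, under each scaling. *Gins1*, a subunit of the GINS complex that activates the helicase, had the lowest ratio of all 40 genes after over before fusion, with signals of 413 before, 287 during and 145 after fusion and a log2 ratio of -1.51. Most of that distance lay after the stage during fusion (-0.98). *Gins2*, of the same complex, had 449 before, 329 during and 227 after fusion and a ratio of -0.98. A dimmer probe set of *Gins2* had 242 before, 216 during and 173 after fusion and a ratio of -0.48. *Mcm10*, which helps to start the fork, had 195 before, 122 during and 96.3 after fusion and a ratio of -1.02. *Pcna*, the sliding clamp of the DNA polymerases, had 4302 before, 2937 during and 2362 after fusion. It was 1.82-fold lower after fusion than before, the smallest distance of these 4 genes by their brightest probe sets.

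The licensing factors parted after the first step. *Cdc6*, which loads the helicase, had signals of 194 before, 113 during and 78.7 after fusion and a log2 ratio of -0.78 during over before and -1.30 after over before fusion. *Cdt1*, its partner in loading, had 1596 before, 1043 during and 1139.7 after fusion. The ratio of *Cdt1* was -0.61 in the first step and 0.13 after over during fusion, with a sign in that second step that turned with the scaling. Both promoters held an E2F motif.

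Among the enzymes that supply nucleotides, the subunits of ribonucleotide reductase also differed. *Rrm2*, the small subunit, had signals of 1760.1 before, 1346 during and 799 after fusion and a log2 ratio of -1.14 after over before. *Rrm1*, the large subunit, had 859 before, 576 during and 704 after fusion and a ratio of -0.29. *Rrm1* was lowest during fusion by this probe set, and its ratio after over during (0.29) was above 0 under each scaling. A second, slightly dimmer probe set of *Rrm1* was lower at each step, with 835 before, 618 during and 604 after fusion. Its ratios were -0.03 after over during and -0.47 after over before fusion. *Tyms*, thymidylate synthase, had signals of 19.7 before, 29.2 during and 16.7 after fusion, close to the floors of 19.3, 13.3 and 14.6, so its ratios of 0.57 and -0.23 rest on signals near background.

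The regulators of entry into S phase had ratios nearer to 0. *E2f1*, a transcription factor of replication genes, had 132 before, 123 during and 99.6 after fusion. *Ccne1*, cyclin E1, had 281 before, 253 during and 204 after fusion. *Ccne2*, cyclin E2, had 148 before, 130.4 during and 91.1 after fusion. Their log2 ratios during over before fusion were -0.10, -0.15 and -0.19, with signs that turned under another scaling. After over before fusion they were -0.41, -0.46 and -0.70 and stayed under 0 with each scaling, but a second, dimmer probe set of *E2f1* had 0.24.

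Among the mitosis genes, those of the centromere and chromosomes had ratios after over before fusion from -1.29 to -0.18. *Cenpe*, the kinetochore motor, had signals of 211 before, 157 during and 86 after fusion and the lowest ratio of the mitosis genes in that comparison. *Cenpa*, the histone H3 variant of centromeres, had 638 before, 571 during and 440.0 after fusion and a ratio of -0.54. *Top2a*, which untangles sister chromatids, had 1289 before, 958 during and 1139 after fusion and a ratio of -0.18. *Top2a* was lowest during fusion, and a dimmer probe set of it had -0.98 after over before.

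*Cdk1* and its cyclins did not share one course. *Ccna2*, cyclin A2, had signals of 866 before, 589.9 during and 549.9 after fusion. *Ccnb2*, cyclin B2, had 651 before, 513 during and 496 after fusion. Both were lower during than before fusion (-0.55 and -0.34), and their small ratios after over during (-0.10 and -0.05) had a sign that turned with the scaling. *Cdk1*, the kinase itself, had 1084 before, 1040.2 during and 1299 after fusion and a ratio of 0.26 after over before, with a sign that turned as well. *Foxm1*, the transcription factor of G2 genes, had 107 before, 63.3 during and 68.7 after fusion. Its ratio during over before was -0.76, the lowest of the mitosis genes in that comparison, but its dimmer probe sets above the floor had -1.01 and -0.04 there. After over before its probe sets parted further, with -0.64 for the brightest and -1.68 and 0.31 for the others.

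The mitotic kinases and their partners were divided likewise. *Plk1*, polo-like kinase, had 356 before, 242 during and 213 after fusion and a ratio of -0.74 after over before. *Aurkb*, the catalytic subunit of the chromosomal passenger complex, had 321 before, 222 during and 207 after fusion and a ratio of -0.63. *Birc5*, survivin, of the same complex, had 928 before, 718 during and 449 after fusion and was 2.07-fold lower after than before fusion. These genes were lower after fusion under each scaling. *Aurka*, the kinase of spindle poles, had 339.6 before, 309 during and 380.2 after fusion and a ratio of 0.16. *Tpx2*, which activates Aurka on the spindle, had 389 before, 408 during and 345 after fusion and a ratio of -0.17. The signs of *Aurka* and *Tpx2* turned with the scaling, and the dimmer probe sets of *Tpx2* had ratios from -1.41 to -0.61.

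The spindle checkpoint genes were lower after fusion, while a target of the checkpoint was higher. *Bub1b*, which encodes the checkpoint protein BubR1, had 385 before, 276 during and 170.4 after fusion and a ratio of -1.18 after over before. *Bub1*, a checkpoint kinase, had 395 before, 292 during and 231 after fusion and a ratio of -0.78. *Mad2l1*, which holds Cdc20 in check, had 841 before, 776 during and 737 after fusion and a ratio of -0.19. The order among them was wide, since *Mad2l1* was within 1.5-fold of its level before fusion. *Ube2c*, the ubiquitin-conjugating enzyme of the anaphase promoting complex, had 1181 before, 988 during and 792 after fusion and a ratio of -0.58. *Cdc20*, the activator of that complex, had 1240.1 before, 1497 during and 1634 after fusion. Its log2 ratios were 0.27 during over before and 0.40 after over before, the highest of the 40 genes in the latter. After over before fusion its 3 probe sets had 0.62, 0.35 and 0.40, and its ratio there was above 0 under each scaling, whereas its sign in the other comparisons turned.

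Of the spindle motors and microtubule proteins, *Nusap1*, which bundles microtubules near chromosomes, had 817 before, 539 during and 410.3 after fusion and a ratio of -0.99 after over before fusion. *Kif11*, the motor that separates spindle poles, had 199 before, 142 during and 113 after fusion and a ratio of -0.82. *Kif20a*, a motor of cytokinesis, had 341 before, 208 during and 192 after fusion and a ratio of -0.83. These 3 were lower after fusion under each scaling. *Prc1*, which bundles the microtubules of the central spindle, had 313 before, 301 during and 325 after fusion and a ratio of 0.05 whose sign turned with the scaling in each comparison. *Prc1* thus differed little between the arrays.

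**Figure D3:**
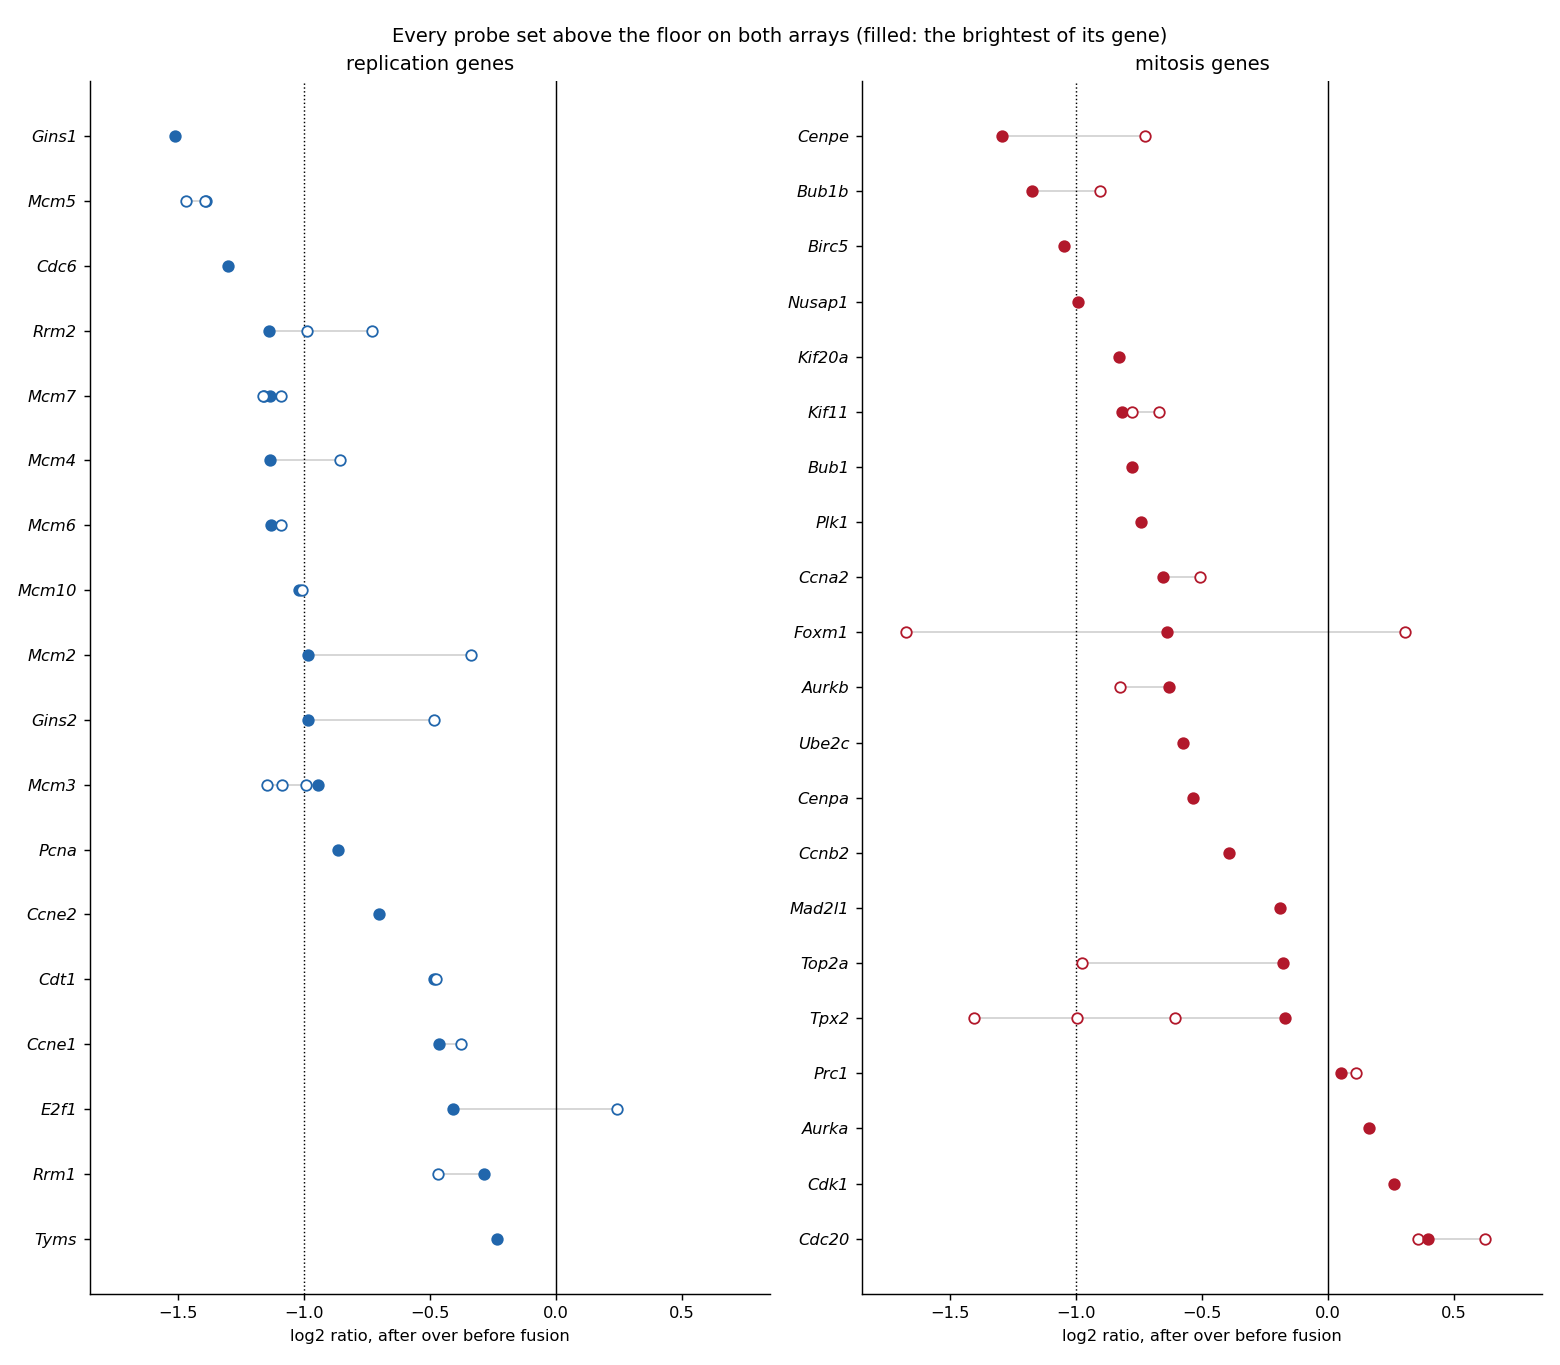
Log2 ratio after over before fusion of every probe set of the replication genes (left) and mitosis genes (right) that lay above the floor on both arrays, with the brightest probe set of each gene filled and genes ordered by it. The probe sets of the helicase subunits lie close together except for *Mcm2*, whose dimmer probe set had -0.34 against -0.98, and those of *Foxm1* and *E2f1* lie on both sides of 0.

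Probe sets of the same gene mostly shared a sign in the comparisons with the stage before fusion, and less often after over during fusion. The 40 genes had 92 probe sets, and 74 of them lay above the floor on both arrays during and before fusion, of which 68 were lower during fusion. After over before fusion, 65 of 74 were lower, and after over during fusion 53 of 75. These counts include the brightest probe set of each of the 40 genes, of which 37, 36 and 32 were lower in the same order. Among all genes, each by its brightest probe set, the shares were 53.8%, 55.2% and 52.3%. Of the 23 genes with at least 2 probe sets above the floor on both arrays, all were lower for 20 genes in the first comparison and for 19 in the second. In the third, all were lower for 11 genes and higher for 3, and the probe sets of 9 genes were on both sides of 0. *Cdc20* and *Prc1* had all probe sets higher after than before fusion. The brightest probe set was marked by the maker as matching several transcripts or sharing sequence with others (s or x) for 9 genes, and leaving these genes out moved none of the counts over 1.5 times, but it lowered the difference between the mitosis and replication medians after over during fusion from 0.31 to 0.14.

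The order of the 3 stages was set out after the values were seen. The signal was lower at each step, from before to during and from during to after fusion, for 30 of the 40 genes (15 of 18 replication genes, 14 of 21 mitosis genes and *Mki67*), against 30.5% of the 11840 genes above the floor on all 3 arrays. At this scaling *Cdt1*, *Rrm1*, *Top2a*, *Cdk1*, *Aurka*, *Prc1* and *Foxm1* were lowest during fusion, and *Tyms* and *Tpx2* were highest then. Under each scaling this held for the brightest probe sets of *Rrm1*, *Top2a* and *Tyms*. A dimmer probe set of *Rrm1* and one of *Top2a* were lower at each step. Conversely, some genes counted as lower at each step had dimmer probe sets above the floor that were not. Such probe sets of *Mcm2*, *Mcm3*, *Mcm5* and *Kif11* were lowest during fusion, for *Kif11* with 132 before, 63.0 during and 83.2 after fusion in one of them. A dimmer probe set of *E2f1* was higher at each step. *Cdc20* alone of the 40 was higher at each step with the scaling used here. With the deposited signals 23 of the 40 genes were lower at each step against 17.6% of all genes, and with the poly-A controls 31 of 40 against 49.1%.

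**Figure D4:**
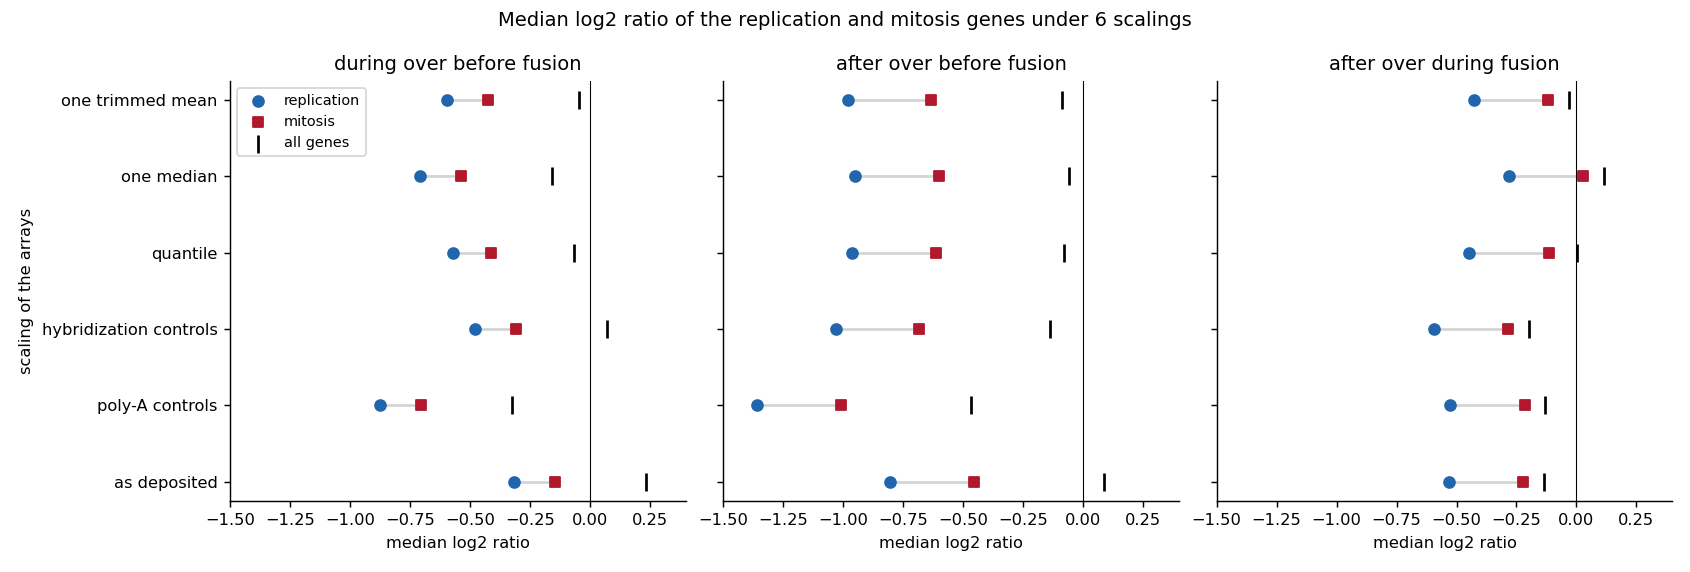
Median log2 ratio of replication genes (blue circles), mitosis genes (red squares) and all genes (black ticks) in each comparison under 6 scalings of the arrays. The 3 markers shift together, because a factor for each array leaves their distances unchanged by construction, except with quantile scaling. The replication median lies left of the mitosis median, by 0.35 after over before fusion.

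Other genes of the same processes, listed apart, differed in the same order. Of 49 other replication genes, 47 were measured, with medians of -0.46 during over before, -0.81 after over before and -0.49 after over during fusion. Over 2-fold lower were 18 of the 47 after over before fusion (38.3%, against 9.58% of all genes) and 1 (*Orc4*) was over 2-fold higher during than before fusion, against 5.45% of all genes. Of 72 other mitosis genes, 69 were measured, with medians of -0.26, -0.48 and -0.23 in the same order, the first of which turned to 0.02 with the deposited signals. Over 2-fold lower were 12 of the 69 after over before fusion (17.4%, against 9.58%) and 1 (*Nek2*) was over 2-fold higher, against 12.6%. The mitosis median was above the replication median by 0.20, 0.33 and 0.26. Among their promoters, 14 of 39 of the other replication genes held an E2F motif (35.9%). CHR together with CCAAT was found in 34 of 60 of the other mitosis genes (56.7%) and 6 of 39 of the other replication genes (15.4%), against 8.61% of all promoters. CHR with or without CCAAT was found in 46 of 60 (76.7%) and 10 of 39 (25.6%), against 21.7% of all promoters.

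The ends of these lists included several well-known genes. *Orc1*, the largest subunit of the origin recognition complex, had scaled signals of 67.3 before, 52.7 during and 15.2 after fusion and a log2 ratio of -2.14 after over before. The signal of *Orc1* after fusion lay close to the floor of 14.6, so the size of that ratio rests on a signal near background. *Cdc7*, the kinase that fires origins, had 184 before, 145 during and 54.4 after fusion and a ratio of -1.76. *Tk1*, thymidine kinase, had 609.7 before, 305 during and 202 after fusion and a ratio of -1.59. Their ratios were lower than that of any of the 40 genes. *Pold1*, the catalytic subunit of DNA polymerase delta, had 442 before, 187 during and 259.9 after fusion and was lowest during fusion (-1.24 during over before). *Orc4*, another subunit of the origin recognition complex, had 206 before, 428 during and 314 after fusion, but its other probe sets above the floor had -1.15 and -0.88 after over before, against 0.61 for the brightest. Among the mitosis genes, *Espl1*, separase, which cuts cohesin at anaphase, had 149.7 before, 92.9 during and 44.7 after fusion and a ratio of -1.74. *Pimreg*, a gene of the metaphase to anaphase transition, had 304 before, 187 during and 83.1 after fusion and a ratio of -1.87. *Cep55*, which acts in the last step of cytokinesis, was higher at each later stage, with 209 before, 309 during and 398 after fusion. *Nek2*, a kinase of the centrosome, had 171 before, 234 during and 1086 after fusion and a ratio of 2.67. Its other probe sets above the floor on both arrays had 1.54 and -0.38, and the brightest was one marked s.

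Inhibitors of cyclin-dependent kinases, which hold cells in G1, had ratios on the other side. Of 7 such genes 6 were measured, and *Cdkn2a* lay under the floor on all 3 arrays. Their median log2 ratio was 0.61 during over before and 0.70 after over before fusion, above 0 under each scaling. *Cdkn1a*, which encodes p21, had scaled signals of 232 before, 2385 during and 3822 after fusion and a log2 ratio of 3.36 during over before and 4.04 after over before, and its second probe set had 3.06 and 3.83. *Cdkn2b*, p15, had 45.8 before, 183 during and 148 after fusion. *Cdkn2c*, p18, had 82.7 before, 144 during and 157 after fusion. *Cdkn2d*, p19, had 244 before, 328 during and 338 after fusion. These genes were higher during and after than before fusion under each scaling. *Cdkn1b*, p27, had 377 before, 303 during and 335 after fusion. *Cdkn1c*, p57, had 4542 before, 4262 during and 3032 after fusion. Neither inhibitor was higher after fusion than before at this scaling, with ratios of -0.17, whose sign turned with the scaling, and -0.58.

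**Figure D5:**
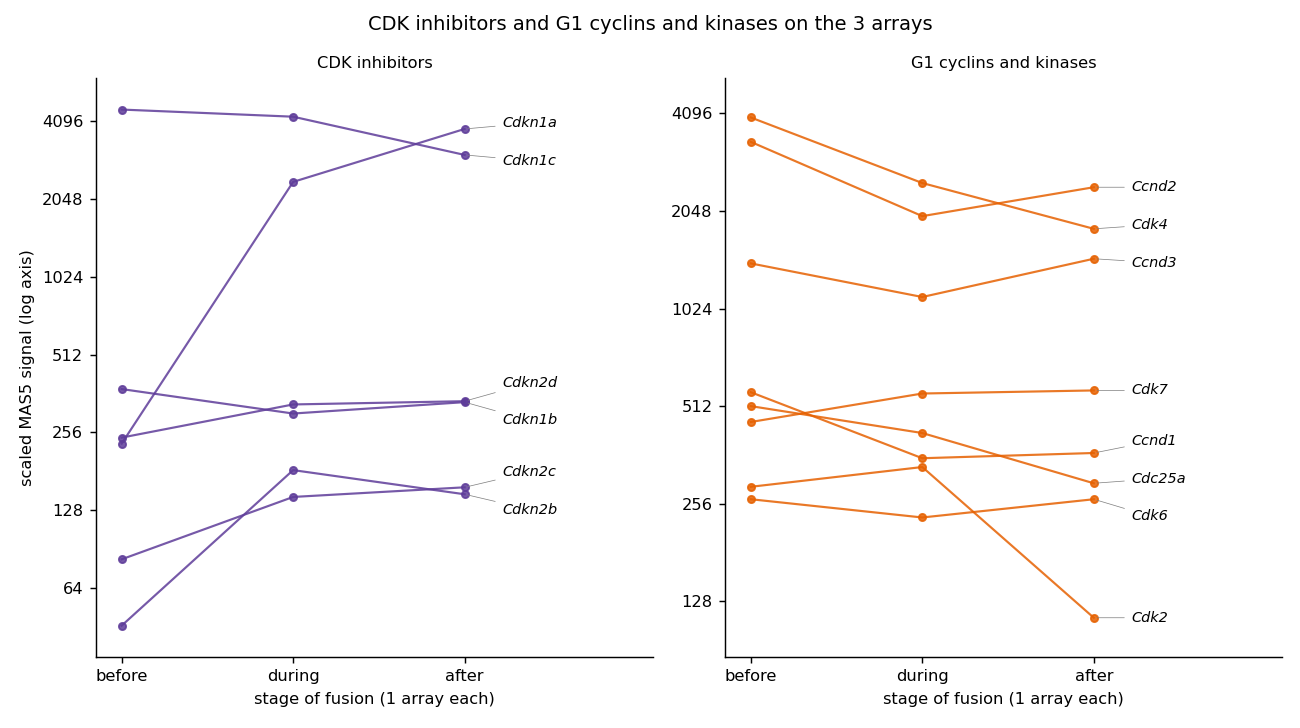
Scaled MAS5 signal (log axis) of the 6 measured inhibitors of cyclin-dependent kinases (left) and of the 8 G1 cyclins and kinases (right) on the 3 arrays, 1 line per gene. *Cdkn1a* goes from 232 before to 2385 during and 3822 after fusion, and *Cdk4* from 3980 to 2499 and 1805.

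The cyclins and kinases of G1 had medians of -0.31 during over before and -0.54 after over before fusion, and 0.04 after over during, a value whose sign turned with the scaling. *Cdk4*, a partner of the D cyclins, had 3979.5 before, 2499 during and 1805 after fusion and a log2 ratio of -1.14 after over before fusion, and its other probe sets had -1.18 and -1.28. *Cdk2*, the partner of cyclins E and A, had 289 before, 333 during and 114 after fusion and a ratio of -1.54 after over during. *Cdc25a*, the phosphatase that activates them, had 512 before, 423 during and 296 after fusion. These genes were lower after than before fusion under each scaling. *Ccnd1*, cyclin D1, had 566 before, 354 during and 367 after fusion. *Ccnd2* and *Ccnd3*, of the same family, had 3347, 1975 and 2425 and 1412, 1112 and 1459.6 in the order of the stages. All 3 D cyclins were lowest during fusion at this scaling. *Cdk6* had 265, 232 and 265 and *Cdk7*, part of the kinase that activates other cyclin-dependent kinases, had 458, 560.5 and 573, with signs that turned in at least 1 comparison each.

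Genes of the E2F and pocket protein families had medians near 0, with 0.04 during over before, -0.18 after over before and -0.10 after over during fusion, and the sign of the first and last turned with the scaling. *Rb1*, the retinoblastoma protein that restrains E2F, had 143 before, 313 during and 452 after fusion and a log2 ratio of 1.66 after over before. *Mybl2*, B-Myb, had 103 before, 61.4 during and 59.3 after fusion and a ratio of -0.79. *E2f3*, an activating E2F, had 231 before, 224 during and 124 after fusion and a ratio of -0.90. Of 12 growth regulators, *Ccng1*, cyclin G1, had 515 before, 2385 during and 1999.6 after fusion and *Gadd45b*, a stress gene, had 93.3 before, 370.5 during and 506 after fusion, ratios after over before of 1.96 and 2.44. *Mycn*, a driver of growth in embryonic tissue, had 203 before, 109 during and 64.3 after fusion and a ratio of -1.66. *Ccng1* and *Gadd45b* were thus higher and *Mycn* lower on both later arrays, under each scaling.

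Cell type markers differed between the same arrays. The summed scaled signal of 11 markers of palatal mesenchyme was 11897 before, 6475 during and 3790.5 after fusion, with all 11 above the floor on each array, so markers of the labelled tissue were present at each stage. That of 10 epithelial markers was 10803, 18021 and 25399, also with all above the floor. Of these 10, 8 were higher during and after than before fusion, while *Trp63* (-0.71 after over before) and *Esrp1* (-0.51) were lower, and 5 were lower after than during fusion. The 7 measured markers of multiciliated cells, which do not divide once mature, summed to 168 before, 3063 during and 15957 after fusion, and *Foxj1*, *Dnah5* and *Deup1* lay under the floor before fusion. The 8 macrophage markers summed to 633, 1352 and 3149.6, and the 4 measured osteoblast markers to 1405, 5232 and 13776, with *Ibsp* under the floor before fusion. The 8 markers of skeletal muscle summed to 1309, 332 and 148, with 7, 6 and 4 above the floor. The 7 endothelial markers, all above the floor, summed to 2493, 870.6 and 744, although 4 of the 7 were higher after than during fusion. The 5 measured erythroid markers, of which *Hba-a1* lay under the floor on each array, summed to 14554, 9788 and 1938. Single markers went against these sums at this scaling. The erythroid *Alas2* had log2 ratios of 0.36 during over before and 0.34 after over before fusion. *Dnah5* had -0.18 during over before, with its signal before fusion raised to the floor. After over during fusion, the mesenchymal *Shox2* had 0.15 and the osteoblast marker *Sp7* had -0.19. The part of these cell types in the ratios of the replication and mitosis genes was not tested.

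The motifs were set beside the ratios as a description. The 6 replication genes with an E2F motif had a median log2 ratio after over before fusion of -1.13, from -1.39 to -0.49, and the 8 measured replication genes with a promoter and no such motif had -0.66, from -1.14 to -0.23. The 12 mitosis genes with CHR and CCAAT had a median of -0.46, from -1.18 to 0.40, and the 4 without both had -1.02, from -1.29 to -0.19. The printed promoters of *Bub1b* and *Cdc20*, which hold the same pair of motifs, belonged to genes with ratios of -1.18 and 0.40. Among the other mitosis genes the order was the opposite, with medians of -0.50 with CHR and CCAAT (32 genes) and -0.30 without both (25 genes). The E2F motif was thus more frequent in the replication promoters and CHR with CCAAT in the mitosis promoters, while the ratios of the mitosis genes that hold CHR and CCAAT covered most of the range of their class. Among the other replication genes the medians were -0.84 with an E2F motif (14 genes) and -0.81 without (25 genes).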

How the data were processed

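Palatal tissue at 3 stages of fusion was measured on 1 Mouse Genome 430 2.0 array each. Total RNA was prepared with Trizol according to the methods and with a column kit per the labels. The intensity values deposited by the authors are MAS 5.0 signals, background-corrected in GeneChip Operating Software, on a linear scale, and no scaling target is named. The table held 45101 probe sets, 64 of them controls. Probe sets naming 1 gene (34945) were used, with names from the platform annotation updated by gene ID. Arrays were scaled to one mean trimmed by 2% at each end, with factors of 1.11, 0.915 and 0.983 in the order of the stages. The floor of an array was the 95th percentile of 81 olfactory, vomeronasal and taste receptor probe sets. Lower signals were set to the floor, and no ratio was formed where both arrays were under it. Of the probe sets other than controls, 56.9%, 65.8% and 61.5% lay above the floor. The number of arrays limits the precision. Differences were described as log2 ratios, counts past 2-fold and medians, beside the same over all genes, and no test was possible. Scaling, floor and ratios were run on simulated arrays with known fold changes set in bright probe sets only. Fold changes near the floor and the motif search were not tested in this way. Members, lists and motifs were chosen with earlier results of these data known. All members, the CDK inhibitors and the G1 genes could be named, and of other lists the 2 highest and 2 lowest in each comparison. The alternatives were 5 other scalings, no floor or a floor at the array's median, the median over probe sets, genes above the floor on both arrays, and thresholds of 1.5-fold and 4-fold. Leaving out *Tyms*, leaving out shared probe sets, the order of stages and the promoter of *Cdc20* were chosen after seeing the data. Python 3.11.15, numpy 2.4.6, pandas 2.3.3 and matplotlib 3.10.9 were used. Promoters came from RefSeq, GRCm38.p6.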

Additional observations from a re-analysis of the deposited data

How the results depend on the processing

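Several alternatives could not move a value: a factor for an array cancels in the differences, and leaving out the floor could not alter genes that lay above it on all arrays. With one median for all arrays, the median of the mitosis genes after over during fusion turned from -0.118 to 0.0266. Counts of the 40 genes over 2-fold lower were 0 during over before, 11 after over before and 0 after over during fusion. With the poly-A controls they were 4, 25 and 1. With the deposited signals they were 4 after over before and 1 after over during, and with the hybridization controls 2 after over during. At 1.5-fold they were 12, 25 and 8, and at 4-fold 0 after over before. The median of all genes during over before shifted by 0.28 with the deposited signals, by -0.11 with one median, by 0.12 with the hybridization controls and by -0.28 with the poly-A controls. After over before it shifted by 0.18 with the deposited signals and by -0.38 with the poly-A controls. After over during it shifted by 0.14 with one median, by -0.17 with the hybridization controls and by -0.10 with the deposited signals. These shifts apply to every gene of an array, so the counts move with them. Over all alternatives the mitosis median exceeded the replication median by 0.14 to 0.19, by 0.28 to 0.35 and by 0.14 to 0.34 in the 3 comparisons, with the lowest value of the last without shared probe sets and 0.24 without *Tyms* or with the floor at each array's median. No paired analysis was possible because each stage had 1 array, and no replicate could be left out.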
